A study of Mus musculus with 8 samples.

Results

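Bone morphogenetic protein (BMP) signalling was followed through 10 genes chosen by name: the ligand genes Bmp2 and Bmp4, the secreted antagonist Grem1, the target genes Id1, Id2, Id3 and Id4, the inhibitory Smads Smad6 and Smad7, and Smad9. By gene symbol, 9 of the 10 were found among the 16369 genes of the deposited table, and Bmp2 is not analysed here. MLO-Y4, the source of every library, is a mouse line whose cells resemble osteocytes. In 4 ASO libraries the long non-coding RNA H19 had been silenced with an antisense oligonucleotide (ASO), and fluid shear stress followed, at 2 Pa over 4 cycles. The 4 control libraries carried the genotype label WT and came from cells under the same shear stress. The labels do not say what the control cells received in place of the ASO, and their shared treatment text names H19 silencing for every sample. No library came from cells without shear. H19 itself is not analysed here, so the silencing was not checked against its level. All libraries stem from 1 cell line and nothing says that they were separate cultures, and p-values therefore cover the spread of these samples alone, part of which may be technical.

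BMPs are secreted dimers that bind pairs of type I and type II serine/threonine kinase receptors. The receptors phosphorylate Smad1, Smad5 and Smad9, which enter the nucleus with Smad4 and switch on target genes, the Id genes foremost among them. Id proteins lack a DNA-binding region and hold basic helix-loop-helix transcription factors away from DNA. Smad6 and Smad7 are induced by the same signal and close a negative feedback loop at the receptors. In bone, BMPs are known as drivers of osteoblast differentiation, and secreted antagonists such as gremlin limit their reach.

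With the ASO, Smad7 rose by 1.20-fold, and the other 8 genes did not pass the test. Of the 9 genes measured, all passed the filter on low counts, 1 was higher and 0 were lower at an adjusted p under 0.05 (edgeR quasi-likelihood test over all genes, n = 4 per group). Among all 12227 tested genes, 14.6% were called in either direction and 7.11% were called higher, so 1 call in 9 genes lies near the background. The Id genes, the inhibitory Smads and Grem1 were abundant transcripts in both groups, Id4 excepted. Further up the pathway, the receptor genes Bmpr2 and Acvr1, the co-receptor gene Rgmb, Smad1 and 4 genes listed as BMP antagonists and modulators were lower in ASO cells. The calls of Bmpr2, Acvr1 and 1 of the modulators, Bmper, ended when certain single libraries were left out.

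The libraries held 19501984 to 19914209 estimated reads, so that 3 reads, the limit that a count of 0 allows, stood for 0.151 to 0.154 CPM (reads scaled to library size). Samples numbered 1 and 2 are set against samples 3 and 4 of both groups below, a division that the labels do not name and that was taken from earlier results of these data. Of the defining osteocyte genes, Gja1 (325 TPM over all libraries, a level scaled to transcript length and depth) and Pdpn were high, Dmp1 was low, and Sost and Mepe had under 3 reads in every library. Of 8 tested osteocyte markers 2 were called higher, namely Pdpn (195 ± 7.58 TPM in ASO and 170 ± 12.1 TPM in control libraries, SD, n = 4 each) and Cd44 (142 ± 5.33 TPM in ASO and 126 ± 6.23 TPM in control libraries), and 2 lower, namely Dstn (139 ± 3.29 TPM in ASO and 167 ± 8.55 TPM in control libraries) and Dmp1 (0.41 ± 0.21 TPM in ASO and 1.14 ± 0.38 TPM in control libraries). Of 8 tested osteoblast markers, Alpl and Sp7 were called higher and the osteocalcin genes Bglap (80.7 ± 20.2 TPM in ASO and 124 ± 9.16 TPM in control libraries) and Bglap2 (209 ± 43.6 TPM in ASO and 350 ± 37.6 TPM in control libraries) lower, close paralogs whose reads may be shared. The list summed to 21660 to 24692 TPM in ASO and 21560 to 22323 TPM in control libraries, mostly Spp1, with Ibsp and Postn under 3 reads throughout. Markers of endothelial cells summed to at most 0.54 TPM in ASO and 0.34 TPM in control libraries, and those of epithelial cells to at most 0.68 TPM in ASO and 0.92 TPM in control libraries. The chondrocyte list (6 of 7 genes with a value, mostly Sox9) summed to 68.8 to 90.0 TPM in ASO and 95.8 to 141 TPM in control libraries, with Col9a1 under 3 reads throughout, and its 3 tested genes, Col10a1, Col2a1 and Sox9, were called lower. The adipocyte list (6 of 6, mostly Cebpa) summed to 60.7 to 75.9 TPM in ASO and 81.9 to 96.6 TPM in control libraries, with Adipoq under 3 reads throughout, and Cebpa was called lower. The macrophage and osteoclast list, mostly Ctsk, summed to 137 to 170 TPM in ASO and 125 to 182 TPM in control libraries, and 1 of its 6 tested genes was called. That gene, Cd68, stood at 27.2 to 34.5 TPM in ASO and 7.56 to 12.4 TPM in control libraries, with no overlap (log2 fold change 1.54 ± 0.13 SE, edgeR adjusted p = 1.7e-05). In CPM, every ASO library was higher than every control library for 9.77% of all tested genes. Calls made up 50% of tested osteocyte and 50% of tested osteoblast markers, against 14.6% of all tested genes. For the chondrocyte, adipocyte and macrophage and osteoclast lists the shares were 100% of 3, 25% of 4 and 16.7% of 6 genes. The part of these lists in the results was not tested, and in bulk RNA fewer cells of a type cannot be told apart from less RNA per cell.

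Levels per transcript length, in TPM as the authors give them, spanned a wide range. Id3 was the most abundant of the 9, with a mean of 1040 TPM over 8 libraries, at the 99.1 percentile of all genes of the table. Id1 followed with 440 TPM. Grem1 (192 TPM) and Id2 (191 TPM) overlapped in their ranges and their order is not settled by these data. Smad6 came next with 96.1 TPM, then Smad7 with 55.4 TPM, Bmp4 with 19.6 TPM and Smad9 with 9.69 TPM. Apart from Grem1 and Id2, no neighbours in this order overlapped in any library. Id4 stood far below the others at 0.46 TPM, from 12 to 29 reads per library.

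**Figure D1:**
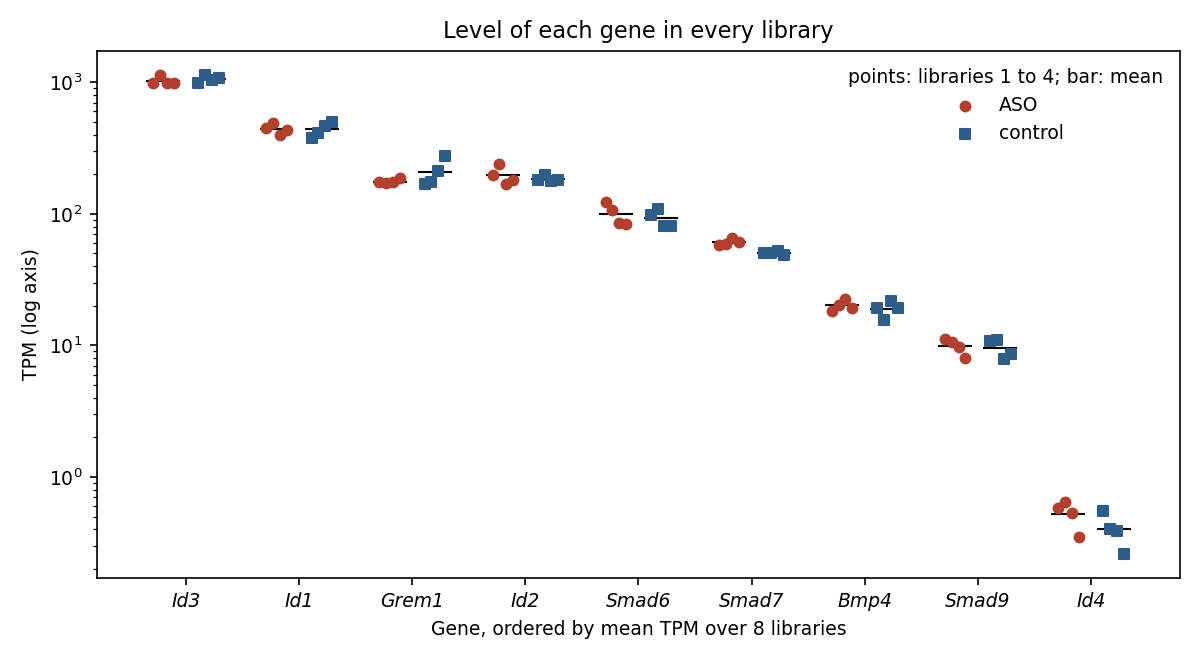
TPM of the 9 genes (log axis) in each of the 4 ASO and 4 control libraries, with bars at the group means and genes ordered by their mean over 8 libraries. The groups overlap for every gene except Smad7, where ASO libraries lie at 57.7 to 65.0 TPM and control libraries at 48.5 to 52.0 TPM.

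Among the ligands, Bmp4, which encodes an osteogenic BMP (gene 12159, chromosome 14, 46383525 to 46390669, GRCm38.p6), was the most abundant of those measured. It stood at 18.4, 20.4, 22.6 and 19.3 TPM in ASO libraries 1 to 4, against 19.2, 15.6, 21.8 and 19.4 TPM in control libraries 1 to 4. The groups overlapped, with library 3 highest in each. Bmp4 had a log2 fold change of 0.12 ± 0.10 (SE, edgeR adjusted p = 0.47), with a 95% interval of -0.10 to 0.33. Bmp4 overlaps 2 annotated genes on the opposite strand, and as the strandedness of the libraries is unclear, their reads could not be told apart.

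The other ligand genes were scarce. Of 15 BMP family ligands listed, 11 had a row and 5 passed the filter on low counts, of which 0 were higher and 0 lower by edgeR, while 1, Gdf5, had an unadjusted p under 0.05. The median log2 fold change of these 5 was -0.34, against 0.0026 over all tested genes. Gdf5, a joint-forming member of the family, averaged 6.01 ± 1.18 TPM in ASO and 7.75 ± 1.04 TPM in control libraries (SD, n = 4 each), with a log2 fold change of -0.35 ± 0.14 (SE, edgeR adjusted p = 0.10). It passed with the division of the samples as a term (adjusted p = 0.021), in a fit that called 25.6% of all genes. Bmp5, Bmp6 and Bmp8a lay at or below 1.14 TPM in either group mean. Bmp7 had at most 11 reads in any library, and Bmp10 had 0 reads in all ASO libraries and 2 in all control libraries together. Gdf7, also below the filter, had 3, 7, 4 and 4 reads in ASO libraries 1 to 4, against 9, 11, 8 and 9 in control libraries 1 to 4.

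Grem1 encodes gremlin, a secreted protein that binds BMP2 and BMP4 and keeps them from their receptors (gene 23892, chromosome 2, 113748675 to 113758648, GRCm38.p6). It stood at 174, 170, 174 and 186 TPM in ASO libraries 1 to 4, against 170, 175, 212 and 274 TPM in control libraries 1 to 4. Control libraries 3 and 4 were the highest of the 8, while control libraries 1 and 2 lay within or just below the range of the ASO libraries. In CPM, Grem1 averaged 156 ± 8.63 in ASO and 182 ± 42.2 in control libraries (SD, n = 4 each). Its log2 fold change was -0.22 ± 0.12 (SE, edgeR adjusted p = 0.24), with a 95% interval of -0.48 to 0.04.

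Within samples 3 and 4 alone, where 17.4% of all genes were called, Grem1 was lower with a log2 fold change of -0.39 (adjusted p = 0.0026). Within samples 1 and 2 alone, where 8.36% were called, it was -0.0070 (adjusted p = 0.96). The difference between these fold changes was -0.38 ± 0.13 (SE) and did not pass over all genes (edgeR interaction term, adjusted p = 0.59). These parts were taken from earlier results of these data, with n = 2 per group in each, so their p-values are descriptions only. The TPM of Grem1 was 7.70 to 9.63 times that of Bmp4 in ASO libraries and 8.84 to 14.2 times in control libraries, so the ranges overlapped.

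Genes listed as BMP antagonists and modulators moved downwards where they passed. Of 18 genes on this list, 14 had a row and 11 passed the filter, of which 0 were higher and 4 lower. That is 36.4% of the 11, against 14.6% of all tested genes called in either direction and 7.53% called lower, and the median log2 fold change was -0.22. All lists of pathway genes were chosen with earlier results of these data known, so their shares and medians are descriptions. Crim1, a transmembrane protein that tethers BMPs at the cell surface, stood at 82.5, 78.2, 75.2 and 65.7 CPM in ASO libraries, against 112, 116, 94.1 and 104 CPM in control libraries. All ASO libraries were lower than all control libraries, as for 9.36% of all tested genes, and the log2 fold change was -0.49 ± 0.08 (SE, edgeR adjusted p = 0.0016). Twsg1, which encodes twisted gastrulation, a partner of chordin in BMP binding, averaged 190 ± 4.88 CPM in ASO and 241 ± 13.2 CPM in control libraries (SD, n = 4 each; log2 fold change -0.35 ± 0.06 SE, adjusted p = 0.0018). Nbl1, an antagonist of the same cystine-knot family as gremlin, averaged 246 ± 17.1 CPM in ASO and 308 ± 23.7 CPM in control libraries (log2 fold change -0.32 ± 0.07, adjusted p = 0.0078).

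Bmper, which encodes a BMP-binding endothelial regulator, averaged 27.4 ± 2.85 CPM in ASO and 32.8 ± 0.66 CPM in control libraries (SD, n = 4 each; log2 fold change -0.26 ± 0.08 SE, edgeR adjusted p = 0.036). Leaving out single libraries ended its call in 7 of 8 fits (adjusted p up to 0.080), the exception being ASO replicate 3, and scaling by library size alone did so too (adjusted p = 0.0506). Chrd, the chordin gene, lay lower in every ASO library at 0.98 ± 0.05 TPM, against 1.38 ± 0.09 TPM in control libraries, but did not pass (log2 fold change -0.47 ± 0.15, adjusted p = 0.058). In CPM, every ASO library was lower than every control library for 9.36% of all tested genes. With the division of the samples as a term Chrd passed (adjusted p = 0.039), and the calls on this list numbered 6. That fit called 25.6% of all tested genes. Fst, which encodes the activin and BMP antagonist follistatin, lay at a log2 fold change of -0.04 ± 0.10 (adjusted p = 0.80). Sost, the sclerostin gene, had 3 reads in all ASO and 1 read in all control libraries.

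Receptor genes fell in 3 of 12 tested cases (25% against 14.6% of all genes and 7.53% called lower) and rose in 0. The log2 fold change was negative for 11 of the 12, with a median of -0.18, while 49.4% of all tested genes had a negative value. This list too was chosen with earlier results of these data known, and no test was run over it. Rgmb, a co-receptor that increases the response to BMPs, stood at 57.2, 60.3, 53.8 and 51.6 CPM in ASO libraries, against 71.5, 75.9, 88.5 and 83.4 CPM in control libraries. Every ASO library was lower than every control library, as for 9.36% of all tested genes (log2 fold change -0.52 ± 0.08 SE, edgeR adjusted p = 7.8e-04). Bmpr2, the type II BMP receptor gene, averaged 44.8 ± 3.31 CPM in ASO and 52.3 ± 1.35 CPM in control libraries (SD, n = 4 each; log2 fold change -0.23 ± 0.06, adjusted p = 0.030). Acvr1, a type I receptor gene also known as ALK2, averaged 56.9 ± 5.33 CPM in ASO and 67.9 ± 3.77 CPM in control libraries (log2 fold change -0.25 ± 0.07, adjusted p = 0.031).

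Without single libraries, the call of Rgmb held in all 8 fits, whereas that of Bmpr2 ended without ASO replicate 3 or 4 or control replicate 1 or 2 (adjusted p up to 0.088). The call of Acvr1 ended without ASO replicate 2 or 4 or control replicate 2, 3 or 4 (adjusted p up to 0.096). Bmpr1a, the main type I receptor gene for BMP2 and BMP4, missed the threshold at a log2 fold change of -0.19 ± 0.06 (adjusted p = 0.064), but passed with the division of the samples as a term (adjusted p = 0.0076). In that fit 25.6% of all tested genes were called. Eng, which encodes endoglin, was the 1 receptor gene with a positive value, 0.13 ± 0.06 (adjusted p = 0.15).

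Of the Smad genes that carry the signal, Smad1 fell. It stood at 40.1, 37.4, 41.2 and 37.1 CPM in ASO libraries, against 43.8, 46.0, 49.1 and 47.8 CPM in control libraries. Every ASO library was lower than every control library, as for 9.36% of all tested genes. The log2 fold change was -0.26 ± 0.06 (SE, edgeR adjusted p = 0.013). In samples 1 and 2 alone Smad1 did not pass (-0.21, adjusted p = 0.136). Smad5, its close relative, did not pass (-0.05 ± 0.07, adjusted p = 0.64), nor did Smad4, the shared partner (-0.07 ± 0.05, adjusted p = 0.42). Whether Smad1 and Smad5 differed in their response was not tested.

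Smad9 encodes Smad8, the third BMP-regulated Smad, and is itself known as a BMP target (gene 55994, chromosome 3, 54755455 to 54801662, GRCm38.p6). It stood at 11.1, 10.5, 9.70 and 8.05 TPM in ASO libraries 1 to 4, against 10.8, 10.9, 7.85 and 8.63 TPM in control libraries 1 to 4. Samples 1 and 2 were higher than samples 3 and 4 in both groups, by 0.24 log2 CPM in ASO and 0.39 log2 CPM in control libraries, and the groups overlapped. For Smad9 the log2 fold change was 0.06 ± 0.11 (adjusted p = 0.76), with a 95% interval of -0.18 to 0.30.

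Smad7 encodes an inhibitory Smad that occupies activated receptors of the BMP and TGF-beta branches and recruits ubiquitin ligases to them (gene 17131, chromosome 18, 75367365 to 75395935, GRCm38.p6). It stood at 57.7, 59.3, 65.0 and 60.6 TPM in ASO libraries 1 to 4, against 50.2, 50.4, 52.0 and 48.5 TPM in control libraries 1 to 4. Every ASO library was higher than every control library, which 9.77% of all tested genes also showed in CPM. In CPM it averaged 144 ± 7.53 in ASO and 119 ± 2.86 in control libraries (SD, n = 4 each). The log2 fold change was 0.27 ± 0.06 (SE, edgeR adjusted p = 0.0068), a 1.20-fold difference with a 95% interval of 1.11 to 1.31.

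Leaving out each library in turn kept the call of Smad7 in 8 of 8 fits, with adjusted p between 0.0083 and 0.025. It held in samples 3 and 4 alone (log2 fold change 0.32, adjusted p = 0.0038) and was not past the threshold in samples 1 and 2 alone (0.21, adjusted p = 0.070). The difference between these parts, which were taken from earlier results of these data, was 0.11 ± 0.10 (interaction adjusted p = 0.92).

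Smad6, the inhibitory Smad that acts mainly on the BMP branch (gene 17130, chromosome 9, 63953076 to 64022085, GRCm38.p6), was more abundant than Smad7 in every library. It stood at 123, 107, 85.0 and 84.3 TPM in ASO libraries 1 to 4, against 97.6, 110, 81.3 and 81.0 TPM in control libraries 1 to 4. Samples 1 and 2 were higher than samples 3 and 4 in both groups, by 0.39 log2 CPM in ASO and 0.34 log2 CPM in control libraries, and the groups overlapped. Its log2 fold change was 0.12 ± 0.12 (edgeR adjusted p = 0.52), with a 95% interval of -0.13 to 0.38 that holds the value of Smad7. The ratio of Smad6 to Smad7 in TPM was 1.31 to 2.14 in ASO and 1.56 to 2.17 in control libraries.

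After subtraction of the group means, Smad6 and Smad9 varied together more than any other pair of the 9 genes (Pearson r = 0.85 in log2 CPM over 8 libraries). Their promoter windows, from 250 bases before to 50 after the start (RefSeq, GRCm38.p6), are therefore shown, with that of Grem1, which went against them (r = -0.63 with Smad6 and -0.68 with Smad9). Bmp4 went against them too (r = -0.77 with Smad6 and -0.58 with Smad9), and its window is not shown. These correlations are descriptions over libraries that share the division of the samples. Capitals mark the Smad palindrome GTCTAGAC in Smad6 and the GC-rich element GGCGCC, which Smad1 and Smad5 are known to bind, in Smad9 and Grem1. All are written 5′ to 3′ on the gene's own strand.
Smad6, chr9:64022010-64022309, minus strand: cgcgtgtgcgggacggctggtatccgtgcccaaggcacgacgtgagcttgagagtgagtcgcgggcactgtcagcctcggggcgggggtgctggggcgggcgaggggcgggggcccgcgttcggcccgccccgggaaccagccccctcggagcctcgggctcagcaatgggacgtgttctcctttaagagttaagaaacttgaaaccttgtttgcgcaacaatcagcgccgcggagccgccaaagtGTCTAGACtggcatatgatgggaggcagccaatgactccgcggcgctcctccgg
Smad9, chr3:54755332-54755631, plus strand: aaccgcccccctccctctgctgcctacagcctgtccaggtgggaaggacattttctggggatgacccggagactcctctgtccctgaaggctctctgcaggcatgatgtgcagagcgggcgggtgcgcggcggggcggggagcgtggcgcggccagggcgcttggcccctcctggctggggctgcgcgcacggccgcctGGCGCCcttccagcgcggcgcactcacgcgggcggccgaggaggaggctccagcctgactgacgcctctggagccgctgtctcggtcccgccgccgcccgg
Grem1, chr2:113758599-113758898, minus strand: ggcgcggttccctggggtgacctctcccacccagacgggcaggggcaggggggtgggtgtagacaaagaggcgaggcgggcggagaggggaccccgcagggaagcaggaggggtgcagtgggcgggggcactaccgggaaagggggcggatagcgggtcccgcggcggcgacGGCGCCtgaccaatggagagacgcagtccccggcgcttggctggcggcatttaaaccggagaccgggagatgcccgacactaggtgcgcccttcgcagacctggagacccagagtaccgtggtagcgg
The palindrome in Smad6 begins 4 bases before the start used for its window and runs across it. The starts used for Smad6 and Smad9 lie inside the gene coordinates given above, and so do the elements marked in these windows. The palindrome was found in 0.213% of 32851 promoter windows and in 1 of the 7 windows examined for the genes described here. Windows of Id1 and Smad7 were not examined, so nothing is said of motifs in them. GGCGCC begins 51 bases before the start in Smad9 and 78 in Grem1, and was also found in the windows of Id2 and Id4. The windows of Bmp4, Id3 and Smad6 do not hold GGCGCC. It occurred in 11.9% of all windows, searched on both strands, and the GC content of the 7 windows was 60% to 73.7%. GTCTAGAC holds the shorter Smad element GTCT on both strands, and GTCT alone occurred in 88% of all windows. A match shows that these letters are present and does not show that a Smad is bound.

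**Figure D2:**
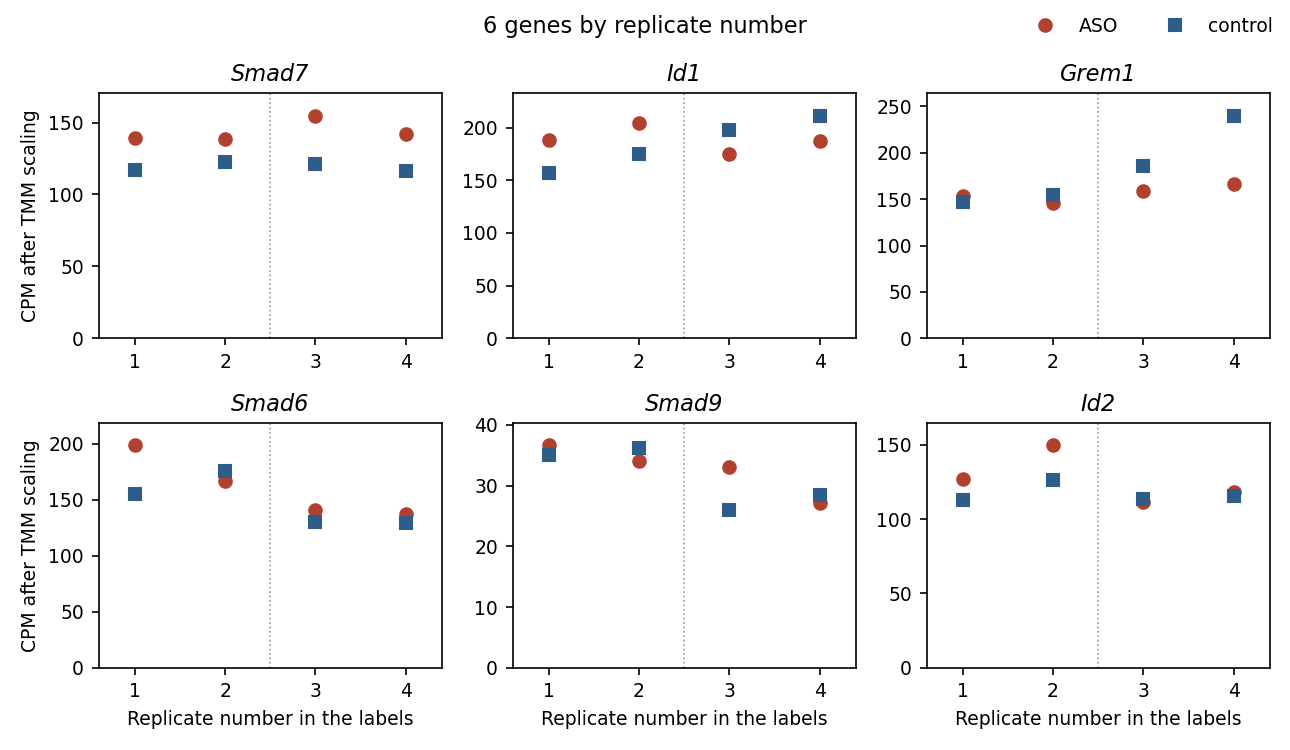
CPM after TMM scaling (axis from 0) of Smad7, Id1, Grem1, Smad6, Smad9 and Id2 in ASO (circles) and control (squares) libraries by their number in the labels, with a dotted line between samples 2 and 3. Smad7 is higher in ASO at every number, Id1 is higher in ASO in samples 1 and 2 and lower in samples 3 and 4, and Smad6 and Smad9 are higher in samples 1 and 2 of both groups.

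Id1, the Id gene most often used as a readout of BMP signalling (gene 15901, chromosome 2, 152736251 to 152737410, GRCm38.p6), did not differ beyond its spread. It stood at 445, 492, 399 and 433 TPM in ASO libraries 1 to 4, against 374, 412, 466 and 498 TPM in control libraries 1 to 4. The groups overlapped, and control libraries covered the wider range. In CPM it averaged 189 ± 12.1 in ASO and 185 ± 24.2 in control libraries (SD, n = 4 each). The log2 fold change was 0.03 ± 0.09 (SE, edgeR adjusted p = 0.86), with a 95% interval of -0.16 to 0.21, or 0.898-fold to 1.16-fold.

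Id1 went opposite ways in samples 1 and 2 and in samples 3 and 4, parts taken from earlier results of these data. In samples 1 and 2 both ASO libraries were higher than both control libraries in CPM, with a log2 fold change of 0.24 (edgeR adjusted p = 0.074). In samples 3 and 4 both ASO libraries were lower than both control libraries, with a log2 fold change of -0.17 (adjusted p = 0.12). The difference between the parts was -0.42 ± 0.11 (SE) and did not pass over all genes (edgeR interaction term, adjusted p = 0.34). In that test edgeR called 0 of 12227 genes (0%), 809 had an unadjusted p under 0.05, and no other tool was run for it. Over the 8 libraries, after subtraction of group means, the genes most like Id1 in log2 CPM among 10041 compared were Arfrp1 (r = 0.97), Src (r = 0.96) and Jph2 (r = 0.96).

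Id3, which is coexpressed with Id1 in many tissues (gene 15903, chromosome 4, 136143822 to 136145392, GRCm38.p6), stood at 993, 1140, 981 and 983 TPM in ASO libraries 1 to 4, against 988, 1127, 1036 and 1070 TPM in control libraries 1 to 4. The groups overlapped, and library 2 was the highest in each. For Id3 the log2 fold change was -0.03 ± 0.06 (edgeR adjusted p = 0.82), and its 95% interval of -0.16 to 0.11 was the narrowest after that of Smad7. Counts of Id3 were not whole in 3 libraries, which leaves its values uncertain, as reads may have been shared with another gene.

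Id2, an Id gene with roles in many lineages (gene 15902, chromosome 12, 25093799 to 25096092, GRCm38.p6), stood at 198, 240, 168 and 181 TPM in ASO libraries 1 to 4, against 179, 198, 178 and 181 TPM in control libraries 1 to 4. ASO library 2 was the highest and ASO library 3 the lowest of the 8. The log2 fold change was 0.11 ± 0.08 (edgeR adjusted p = 0.39), with a 95% interval of -0.07 to 0.29. After subtraction of group means Id2 varied with Id3 (r = 0.75 over 8 libraries).

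Id4, known chiefly from neural progenitors and osteoblasts (gene 15904, chromosome 13, 48261116 to 48266028, GRCm38.p6), had 27, 29, 26 and 17 reads in ASO libraries 1 to 4, against 25, 18, 18 and 12 reads in control libraries 1 to 4. The groups overlapped. Its log2 fold change of 0.41 ± 0.26 (edgeR adjusted p = 0.31) had a 95% interval of -0.15 to 0.97, the widest of the 9. These data do not settle which value within it holds. Id4 also overlaps 2 annotated genes on the opposite strand.

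The 4 Id genes together summed to 1664 ± 143 TPM in ASO and 1677 ± 95.2 TPM in control libraries (SD, n = 4 each), with overlapping ranges. Id3 made up 61.6% ± 1.22 of this sum in ASO and 62.9% ± 1.81 in control libraries, Id1 26.6% ± 0.70 in ASO and 26.1% ± 2.40 in control libraries, and Id2 11.8% ± 0.85 in ASO and 11.0% ± 0.61 in control libraries.

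**Figure D3:**
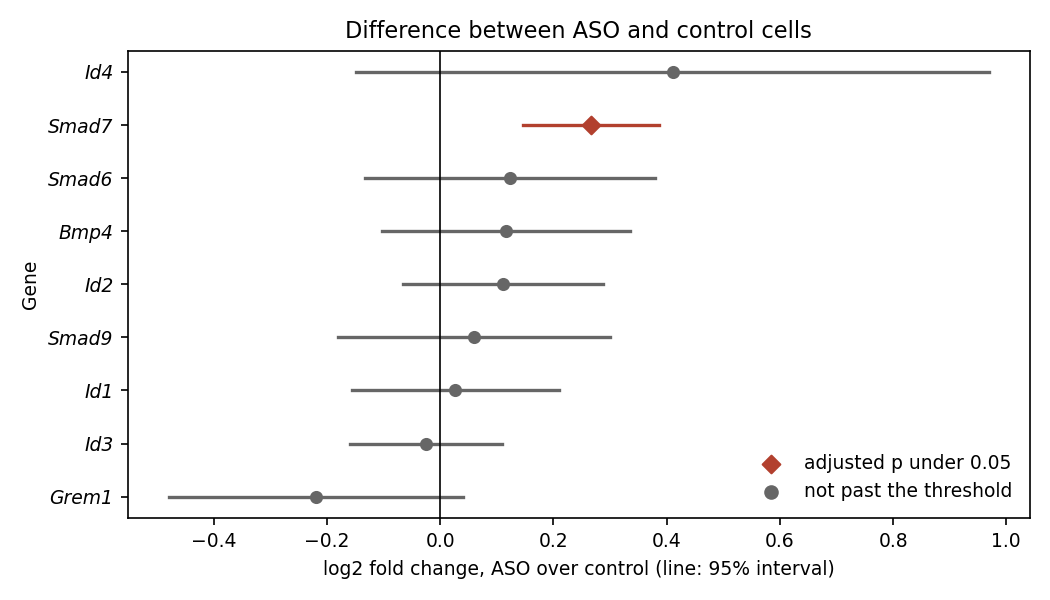
Log2 fold change of the 9 genes, ASO over control, with 95% intervals from the edgeR fit over all genes. The interval of Smad7 (0.15 to 0.39) lies above 0, those of the other 8 genes hold 0, and Id4 has the widest.

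The transcription factors that Id proteins bind mostly did not pass. Of 10 tested basic helix-loop-helix genes, 1 was higher and 0 were lower (10% against 14.6% of all genes), with a median log2 fold change of 0.05. Hes1, a Notch and BMP target, averaged 104 ± 4.92 CPM in ASO and 88.1 ± 9.92 CPM in control libraries (SD, n = 4 each; log2 fold change 0.25 ± 0.08 SE, edgeR adjusted p = 0.046). Its call held without control replicate 3 or 4 and ended in the other 6 fits (adjusted p up to 0.12). The E protein genes Tcf3 (0.08 ± 0.06, adjusted p = 0.35) and Tcf12 (0.05 ± 0.06, adjusted p = 0.63) did not pass, nor did Tcf4 (-0.23 ± 0.08, adjusted p = 0.062). With the division of the samples as a term Tcf4 passed (adjusted p = 0.0047), and the calls on this list numbered 3 of 10. That fit called 25.6% of all tested genes.

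The list of BMP target genes held 17 tested genes, 8 of them among the genes described above. Of the other 9, 2 were higher and 1 lower (33.3% against 14.6%), with a median log2 fold change of 0.06. Alpl, the alkaline phosphatase of mineralising cells, rose to 46.0 ± 3.11 TPM in ASO, against 36.1 ± 1.97 TPM in control libraries (log2 fold change in CPM 0.37 ± 0.07, edgeR adjusted p = 0.0039). Sp7, the osteoblast transcription factor osterix, rose with a value of 0.43 ± 0.12 (adjusted p = 0.026), a call that ended in 5 of the 8 fits without 1 library, namely ASO replicate 1 or 2 or control replicate 1, 3 or 4 (adjusted p up to 0.063). Tnfrsf11b, the osteoprotegerin gene, was lower with -0.81 ± 0.17 (adjusted p = 0.0075). For Bambi, a BMP target that acts as a pseudoreceptor, the value was -0.07 ± 0.13 (adjusted p = 0.77), Atoh8 0.06 ± 0.22 (adjusted p = 0.89) and Msx1 0.01 ± 0.11 (adjusted p = 0.95). Hey1 and Msx2 had 1 read each in all 8 libraries together. Dlx5, also below the filter, had 12, 13, 10 and 9 reads in ASO libraries 1 to 4, against 7, 4, 2 and 0 in control libraries 1 to 4. Gata3, below it too, had 6 reads in all ASO and 2 in all control libraries.

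Regulators of Smad activity were higher in 1 and lower in 3 of 20 cases (20% against 14.6%), with a median of 0.02. Ski, a corepressor of Smad complexes, averaged 173 ± 17.4 CPM in ASO and 223 ± 23.1 CPM in control libraries (SD, n = 4 each; log2 fold change -0.36 ± 0.08 SE, edgeR adjusted p = 0.011). Smurf2, a ubiquitin ligase that Smad7 brings to the receptors, averaged 59.6 ± 5.01 CPM in ASO and 71.2 ± 0.81 CPM in control libraries (log2 fold change -0.26 ± 0.06, adjusted p = 0.017). Tgif1, another corepressor, had -0.40 ± 0.10 (adjusted p = 0.021), and its call ended without ASO replicate 2 or control replicate 4 (adjusted p up to 0.067). Tob2, of a family that restrains BMP signalling in osteoblasts, had 0.21 ± 0.06 (adjusted p = 0.039), and its call held without control replicate 1 and ended in the other 7 fits (adjusted p up to 0.11).

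Smad7 is also a target of TGF-beta, and of 13 tested TGF-beta target genes 2 were higher and 2 lower (30.8% against 14.6%), with a median of -0.06. Ltbp2, a latent TGF-beta binding protein gene, rose with Smad7 (log2 fold change 0.56 ± 0.08, edgeR adjusted p = 0.0011). Ccn2, the connective tissue growth factor gene, fell (-0.53 ± 0.13, adjusted p = 0.015), a call that ended without control replicate 4 (adjusted p = 0.052). Cdkn1a, a cell cycle inhibitor gene, had -0.21 ± 0.06 (adjusted p = 0.036), and its call ended in 5 of the 8 fits, without ASO replicate 1 or 3 or control replicate 1, 3 or 4 (adjusted p up to 0.090). Skil, a corepressor gene, did not pass (0.15 ± 0.09, adjusted p = 0.28).

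**Figure D4:**
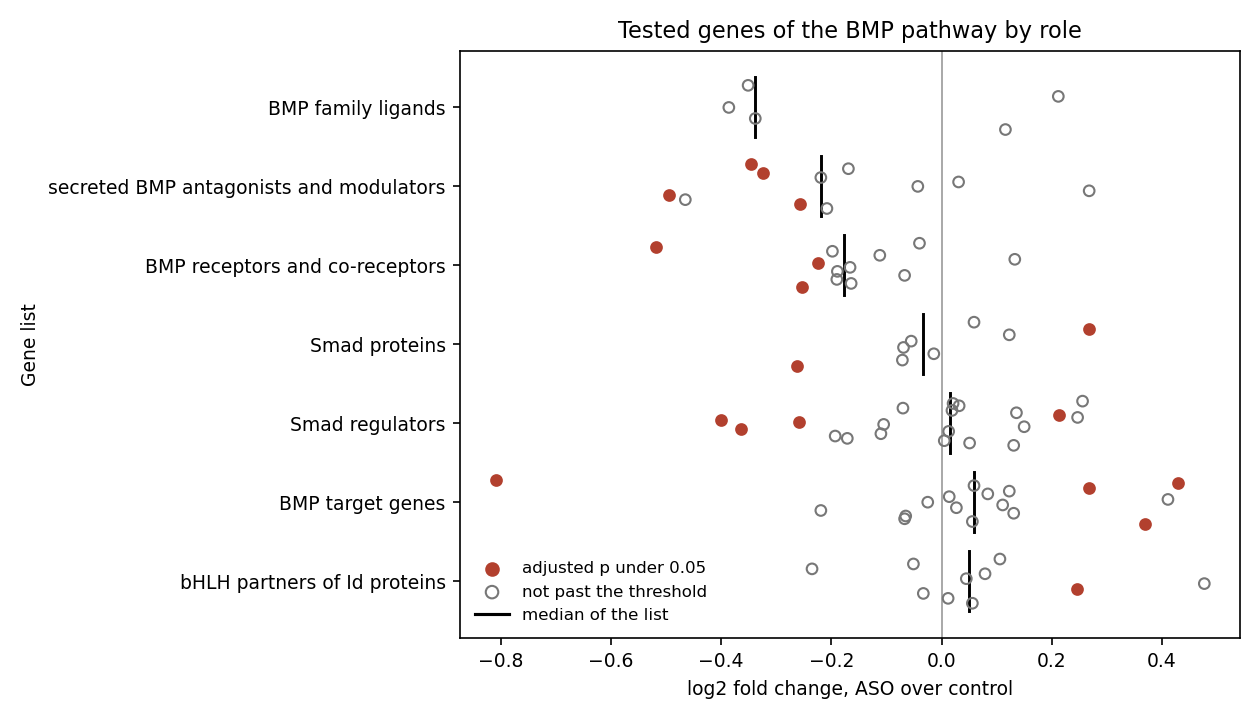
Log2 fold change, ASO over control, of each tested gene in 7 lists of BMP pathway genes grouped by role, with filled points for an adjusted p under 0.05 and black bars at list medians. Medians are -0.34 for ligands, -0.22 for antagonists and modulators, -0.18 for receptors and between -0.03 and 0.06 for the other 4 lists.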

How the data were processed

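RNA-seq of 8 MLO-Y4 libraries (4 ASO, 4 control, grouped and numbered by sample title) was used as 1 deposited table. Per the file headers, the authors deposited an estimated count, an FPKM and a TPM value per gene and library, with group means that were not used. The submitters' processing notes name HISAT, Bowtie2, GRCm38.p6 and mm10. The counting tool is not given in the sources used here. Estimated counts were rounded, filtered with filterByExpr (12227 genes left) and scaled by TMM, and groups were compared with edgeR 4.0.16 (R 4.3.3, quasi-likelihood test, group as the term, Benjamini-Hochberg over all genes at 0.05). Standard errors were derived from the F statistic, and 95% intervals use its degrees of freedom. The procedure was tested on simulated data. CPM values are after TMM scaling. TPM and FPKM served for levels and alternatives (limma 3.58.1 on log2 values). Further alternatives were DESeq2 1.42.0, scaling, filters, voom, a replicate block, the division of the samples and each library left out. The interaction and robust fits were added after values had been seen. Replicate numbers were not taken as pairs, since deviations of equal numbers correlated at 0.0489 to 0.214, not all over 0.1. No library repeated another of its group within sampling noise (chi-square per degree of freedom 4.86 to 19.1). Members and lists were chosen with earlier results of these data known. Named genes are the 9 members, up to 6 called genes of each list by p, undetected genes of the lists and the 3 genes most like Id1, with a mean of at least 5 CPM. Other uncalled list genes were named after their values had been seen. Counting limits cover counting error alone. Gene identifiers gave coordinates from RefSeq (GRCm38.p6). H19 and Bmp2 are not analysed here.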

Additional observations from a re-analysis of the deposited data

Results flagged for a closer look

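Id1 differed in direction between samples 1 and 2 and samples 3 and 4. Its log2 fold change, ASO over control, was 0.24 in samples 1 and 2, where both ASO libraries lay above both control libraries. It was -0.17 in samples 3 and 4, where both ASO libraries lay below both control libraries. The test of this difference gave an adjusted p = 0.34 over all genes (edgeR interaction term, n = 2 per group and part), and the parts were drawn from the data and not from the labels. No library of either group stood apart from its group in CPM for any of the 9 genes by Dixon's criterion at 95%.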

How the results depend on the processing

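Smad7 was higher under all 24 alternatives and past the threshold in 23 of them, with log2 fold changes of 0.21 to 0.32. The exception was samples 1 and 2 alone. The number of called genes among the 9 was 1 in 23 of 25 alternatives, 0 in samples 1 and 2 alone and 2 in samples 3 and 4 alone, where Grem1 joined Smad7. It was 1 in each of the 8 fits without 1 library. Over all genes, 1790 were called, against 3136 with the division of the samples as a term, 1022 in samples 1 and 2 alone, 1167 on log2(TPM + 1) with no filter, 702 at an adjusted p under 0.01 and 1105 to 1940 without 1 library. With the replicate block 2575 were called, and among the 9 genes Smad7 remained the 1 call (adjusted p = 0.0035). Replicate numbers were not taken as pairs in the main fit, and 1 of 4 ASO samples correlated best with the control of its own number. Correlations of 0.0489 to 0.214 between equal numbers do not show that the samples are unpaired. Signs changed for Id3 (0.0071) and Smad9 (-0.0093) in samples 1 and 2 alone and for Id1 (-0.17) in samples 3 and 4 alone, none of them called. Without 1 library, Id1 ranged from -0.0454 to 0.0947, Id3 from -0.0656 to 0.0088, Smad9 from -0.0221 to 0.1391, Grem1 from -0.31 to -0.06, Smad6 from 0.006 to 0.22, Id2 from 0.02 to 0.17, Bmp4 from 0.04 to 0.20 and Id4 from 0.25 to 0.60. Over all genes, the count moved by over 1.5 times without control replicate 2 (1105), ASO replicate 4 (1129) and ASO replicate 3 (1191). Of 20 called pathway genes, 12 missed the threshold in samples 1 and 2 alone (Smad7, Bmpr2, Acvr1, Smad1, Smurf2, Ski, Tob2, Sp7, Alpl, Hes1, Ccn2 and Cdkn1a), 4 in samples 3 and 4 alone (Bmper, Sp7, Hes1 and Cdkn1a), 7 on log2(TPM + 1) with no filter (Bmpr2, Smurf2, Tob2, Tgif1, Sp7, Hes1 and Ccn2), 3 on log2(TPM + 1) or log2(TPM + 0.1) with the filter (Bmpr2, Tob2 and Hes1), 5 on log2(FPKM + 1) (Bmper, Bmpr2, Tgif1, Hes1 and Cdkn1a), 2 with scaling by library size alone (Bmper and Cdkn1a) and 1 among genes of at least 5 CPM (Hes1). Single libraries left out cost 4 to 7 of the 20 calls. Causes were not tested. The values of Id4 rest on 12 to 29 reads per library.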
